A study of Mus musculus with 13 samples.

Results

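Amino acids cross the plasma membrane through solute carrier proteins, and 10 genes of this class were followed through fetal erythroid maturation and loss of Adar: Slc7a11, Slc7a3, Slc7a1, Slc7a5, Slc3a2, Slc38a1, Slc38a2, Slc1a4, Slc1a5 and Slc6a9. They were chosen by the log2 signals of these same arrays, starting from Slc7a11 and Slc7a3 with their high signal in the knockout cells, and 10 of 10 were found among 19938 measured genes. Each gene is represented by the probe set with a single gene symbol and, where several existed, the highest mean over the 13 arrays. Since the knockout comparisons and the control maturation comparisons served to choose the genes, the differences of these genes there are given as a description without p values. The maturation step within the knockout and the difference between the knockout effects were tested. Both are combinations of the comparisons that served to choose the genes, on the same arrays. Their p values are thus not independent of that choice.

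Fetal liver cells of 6 mouse embryos, taken at E14.5, were sorted by flow cytometry, and their biotin-labelled RNA was hybridised to single-colour arrays, each array holding 1 population of 1 embryo. ADAR1, the product of Adar, edits adenosines to inosines within double-stranded stretches of RNA. The 3 knockout embryos (1, 10 and 11) had the Adar1 genotype fl/-, and the 3 control embryos (2, 13 and 15) had fl/+, so the controls also carried a floxed allele. Every embryo had the EpoR-Cre genotype ki/+, a Cre at the erythropoietin receptor locus that acts in the erythroid lineage, and the background labelled C57JB6. The R26 EYFP genotype was ki/+ in the 3 controls and in knockout embryo 1, and +/+ in knockout embryos 10 and 11. The sorting markers were the transferrin receptor CD71 and Ter119, which appears as erythroid cells mature. Ter119- CD71+ cells came from knockout embryos 1, 10 and 11 and control embryos 2, 13 and 15. The more mature Ter119+ CD71+ cells came from knockout embryos 10 and 11 and the same 3 controls, and Ter119+ CD71med cells from control embryos 13 and 15. No knockout Ter119+ CD71med cells were analysed here.

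The product of Slc7a11, called xCT, exchanges extracellular cystine for intracellular glutamate and so supplies the cysteine used for glutathione. It works as a heterodimer with the heavy chain encoded by Slc3a2, which also carries the large neutral amino acid exchanger LAT1, the product of Slc7a5. Slc7a1 and Slc7a3 encode the cationic amino acid transporters CAT1 and CAT3, which carry arginine and lysine. The sodium-dependent neutral transporters are SNAT1 (Slc38a1), SNAT2 (Slc38a2), ASCT1 (Slc1a4) and ASCT2 (Slc1a5), and Slc6a9 encodes GlyT1, a glycine transporter. Red cell precursors need glycine for heme and take up amino acids for globin synthesis. Several transporter genes, Slc7a11 among them, are known targets of ATF4, the transcription factor of the amino acid and endoplasmic reticulum stress responses, which binds composite elements with the letters TGATGNAA.

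Promoter sequence was available for 6 of the 10 genes from RefSeq (build GRCm38.p6, 250 bases before to 50 after a transcript's start), in 9 entries. Slc7a3, Slc7a5, Slc38a1 and Slc1a5 had no entry. The stretches below, each on the gene's own strand, show the genes whose entries held the ATF4 element, Slc7a11 and Slc1a4, beside Slc3a2 and Slc38a2, whose entries did not; those of Slc7a1 and Slc6a9 did not either. The 4 were picked after both the signals and the matches had been seen, so nothing is read from how matches and signals go together. Each begins 120 bases before the start, and that of Slc1a4 runs 4 bases into the transcript. Capitals mark matches to TGATGNAA on either strand.
Slc7a11, chr3:50443614-50443733, minus strand: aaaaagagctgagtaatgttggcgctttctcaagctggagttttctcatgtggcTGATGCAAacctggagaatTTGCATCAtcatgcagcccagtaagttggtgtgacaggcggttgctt
Slc1a4, chr11:20332710-20332833, minus strand: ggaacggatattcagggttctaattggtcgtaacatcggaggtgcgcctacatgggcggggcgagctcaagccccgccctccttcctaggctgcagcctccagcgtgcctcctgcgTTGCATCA
Slc3a2, chr19:8713898-8714017, minus strand: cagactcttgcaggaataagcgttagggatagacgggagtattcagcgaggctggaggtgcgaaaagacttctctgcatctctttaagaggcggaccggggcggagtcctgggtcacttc
Slc38a2, chr15:96699729-96699848, minus strand: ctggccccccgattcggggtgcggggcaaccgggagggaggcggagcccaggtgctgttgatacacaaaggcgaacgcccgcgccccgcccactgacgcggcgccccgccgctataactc

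The Slc7a11 promoter held 2 matches, TGATGCAA at -66 to -59 and TTGCATCA, the opposite strand's reading, at -47 to -40, with 11 bases between them. The match in Slc1a4 lay across the transcript's start. Of 32851 RefSeq promoters of the same length, 1304 (3.97%) held at least 1 match and 23 (0.07%) held 2 or more. The core of the antioxidant response element, TGACNNNGC on either strand, was in the promoters of Slc7a1, Slc38a2 and Slc6a9 and in 12.39% of all promoters. The core of the interferon-stimulated response element, GAAANNGAA on either strand, was in 8.56% of all promoters and in 0 of the 6 genes' entries. These matches describe letters in a window of 300 bases and say nothing about occupancy.

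The sorted cells carried erythroid RNA. The mean of 9 measured erythroid markers was 10.36 to 10.54 log2 units in control and 10.06 to 10.25 in knockout Ter119- CD71+ cells, 11.03 to 11.27 and 10.73 to 10.87 in Ter119+ CD71+ cells, and 11.24 to 11.29 in Ter119+ CD71med cells. None of the 9 was called between knockout and control by limma in either population, with 5 at an unadjusted p under 0.05 in each. Their mean was still lower in every knockout array than in every control array of the same population. The list's median differences were -0.45 and -0.31, against 0.00 and 0.02 over all genes. A difference in maturity within a sorted population thus cannot be told apart from genotype. Its part in the transporter values was not tested. The Adar probe set cannot serve to check the deletion, because the sources used here do not give the position of its probes relative to the floxed exons. Its level was 7.39 to 7.64 in knockout and 7.20 to 7.81 in control Ter119- CD71+ cells, and 7.68 to 8.10 and 7.43 to 8.37 in Ter119+ CD71+ cells. Both groups of 2 arrays were wider than the others: the median absolute difference per gene was 0.2465 between the knockout Ter119+ CD71+ arrays and 0.2049 between the Ter119+ CD71med arrays, against 0.1123 to 0.178 between arrays in groups of 3. The main values resting on these pairs are also given with each array left out. In bulk RNA, fewer cells of a type and less RNA per cell cannot be told apart.

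Slc7a11 stood low in every control population and high in every knockout array. In control Ter119- CD71+ cells its log2 level was 5.01, 4.94 and 5.53 in embryos 2, 13 and 15, and in knockout cells 8.31, 8.70 and 8.50 in embryos 1, 10 and 11. In control Ter119+ CD71+ cells it was 5.44, 5.10 and 4.63, and in the knockout cells of embryos 10 and 11 it was 8.83 and 9.06. The Ter119+ CD71med cells of control embryos 13 and 15 had 4.63 and 4.62. The lowest knockout array, at 8.31, thus lay far above the highest control array, at 5.53. On its own array, Slc7a11 lay between percentiles 16.5 and 42.4 of all genes in controls and between percentiles 79.7 and 86.1 in knockouts.

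The difference between knockout and control for Slc7a11 was 3.34 log2 units (SE 0.20) in Ter119- CD71+ cells, or 10.1-fold, and 3.89 (SE 0.22) in Ter119+ CD71+ cells, or 14.8-fold. Both ranked 5th among the increases of all 19938 genes. The control levels lay below the median of every array, and since the files give no background level, the folds would understate the change if the control signal was at background. Without knockout embryo 10 or 11 the second difference was 3.9995 or 3.77. The order of the group means was Ter119+ CD71med, control Ter119+ CD71+, control Ter119- CD71+, knockout Ter119- CD71+ and knockout Ter119+ CD71+. The arrays of the 3 control groups overlapped with their neighbours in that order, and those of the knockout groups did not.

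Slc7a3, the gene of the arginine and lysine carrier CAT3, had the same split. Its log2 level was 5.56, 5.41 and 5.41 in control Ter119- CD71+ cells and 8.52, 9.07 and 8.66 in the knockout cells. In Ter119+ CD71+ cells it was 5.26, 5.42 and 5.25 in controls and 8.55 and 8.39 in knockouts. The Ter119+ CD71med arrays had 4.59 in embryo 13 and 5.41 in embryo 15, so these 2 arrays lay 1 at and 1 well below the other controls. The difference was 3.29 (SE 0.18; 9.77-fold) in Ter119- CD71+ cells and 3.16 (SE 0.20; 8.91-fold) in Ter119+ CD71+ cells, 6th among the increases of all genes in both. Leaving out knockout embryo 10 or 11 gave 3.08 or 3.23 in the latter, and the control levels were likewise low on their arrays. The 2 knockout groups overlapped with each other, as did each neighbouring pair of control groups.

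For Slc7a11 and Slc7a3, each of the 5 knockout arrays exceeded each of the 8 control arrays, which held for 167 of all 19938 genes (0.838%). Slc1a4 lay just outside this pattern, with a lowest knockout array of 6.92 and a highest control array of 6.97. No other gene of the 10 met it.

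**Figure D1:**
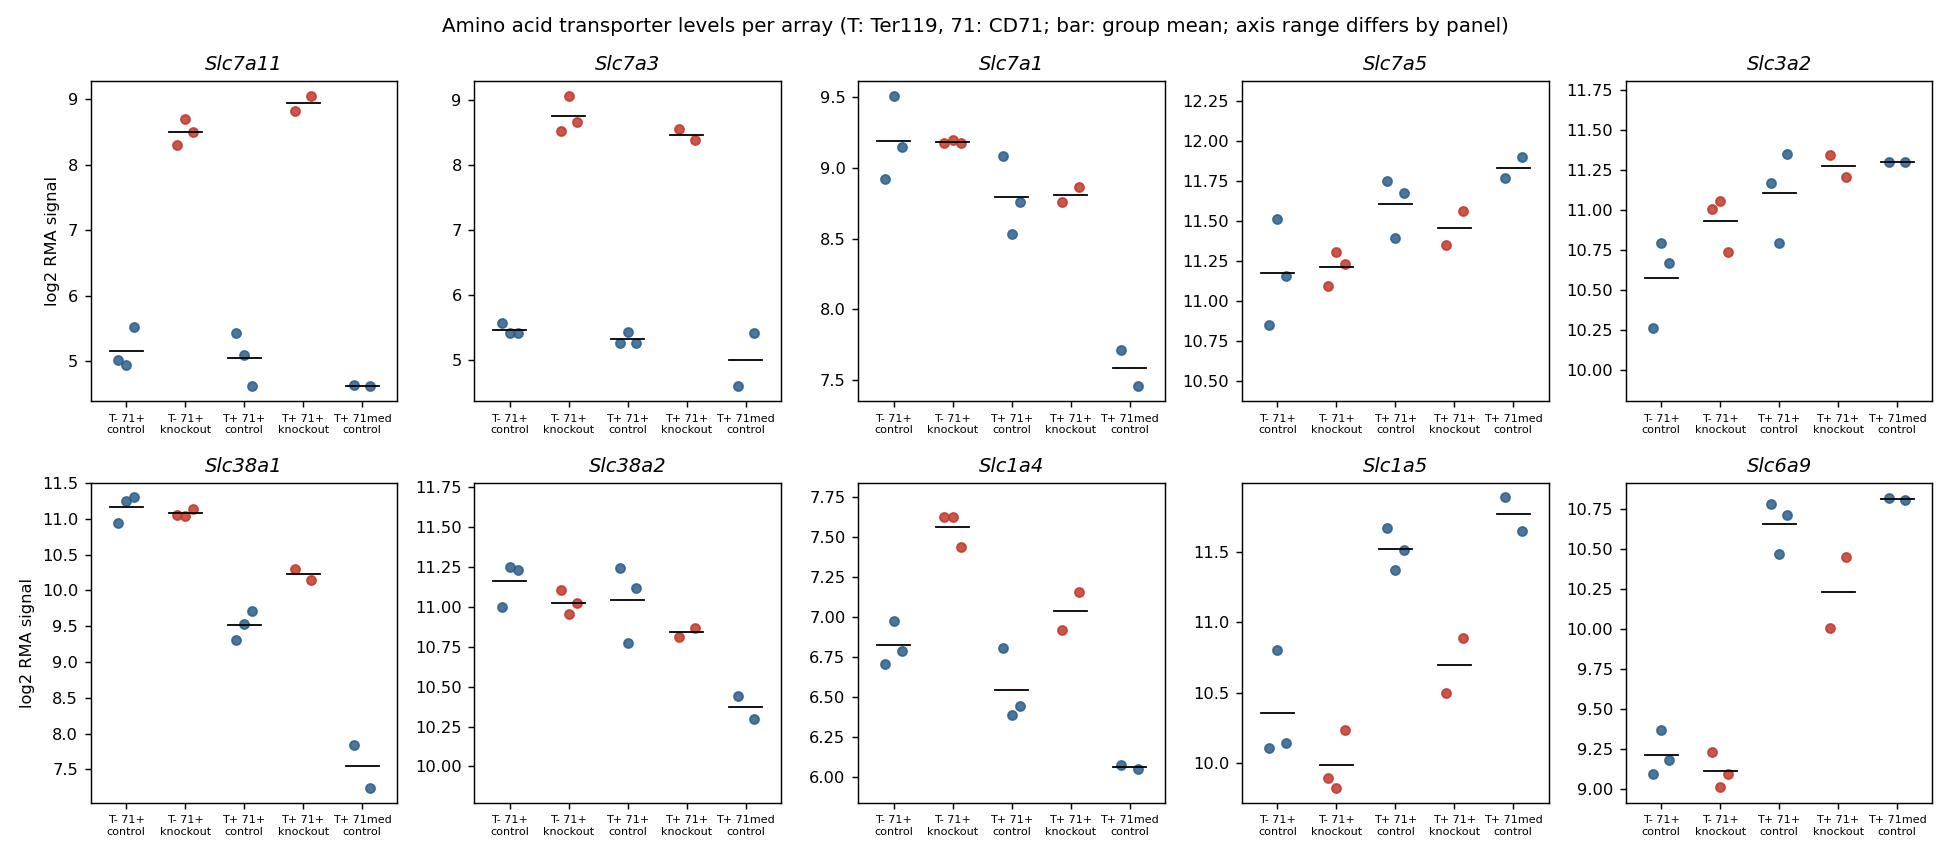
Log2 RMA signal (vertical axis, a different range in each panel) of the 10 transporter genes in each array (points) of the 5 groups, with the group mean as a bar; knockout arrays are red and control arrays blue. Slc7a11 and Slc7a3 lie at 8.31 or above in all knockout arrays and at 5.56 or below in all control arrays, and Slc38a1 falls across the control groups from a mean of 11.16 to 7.54.

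Slc3a2 and Slc7a5, the heavy chain gene and the gene of its LAT1 partner, did not share the split of Slc7a11. Slc3a2, whose product is the chain that xCT needs to reach the membrane, had log2 levels of 10.26, 10.79 and 10.67 in control and 11.01, 11.05 and 10.74 in knockout Ter119- CD71+ cells. The Ter119+ CD71+ arrays had 11.17, 10.79 and 11.35 in controls and 11.34 and 11.21 in knockouts. Knockout and control arrays overlapped in both populations, with differences of 0.36 (SE 0.16) and 0.17 (SE 0.18), neither called; the second was 0.10 or 0.24 without knockout embryo 10 or 11. Slc7a5 differed by 0.04 (SE 0.15) and -0.15 (SE 0.17; -0.045 or -0.25 without embryo 10 or 11), with group means of 11.17 ± 0.33 in control and 11.21 ± 0.11 in knockout Ter119- CD71+ cells (SD, n = 3 each).

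Slc7a1, the gene of the other cationic transporter CAT1, was level between genotypes where Slc7a3 was not. Its mean was 9.19 ± 0.30 in control and 9.18 ± 0.01 in knockout Ter119- CD71+ cells (SD, n = 3 each), a difference of -0.01 (SE 0.16). The means in Ter119+ CD71+ cells were 8.79 ± 0.28 (n = 3) and 8.81 ± 0.08 (n = 2), a difference of 0.02 (SE 0.18), whose sign turned to -0.035 without embryo 11.

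Among the neutral transporters, Slc1a4 (ASCT1, a carrier of alanine, serine and cysteine) was the one called between genotypes. Its log2 level was 6.70, 6.97 and 6.78 in control and 7.62, 7.63 and 7.44 in knockout Ter119- CD71+ cells, with no overlap and a difference of 0.74 (SE 0.13; 1.67-fold). This call ended without knockout embryo 10 or control embryo 15 of that population, and with the R26 EYFP genotype or the myeloid marker mean as a covariate, while the difference stayed between 0.67 and 0.82 over 24 alternatives. At the Ter119+ CD71+ stage Slc1a4 was 6.80, 6.38 and 6.44 in controls and 6.92 and 7.15 in knockouts. The arrays there did not overlap, and the difference of 0.49 (SE 0.14) was not called; it was 0.61 without knockout embryo 10, 0.38 without embryo 11, and called without control embryo 2.

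Among the 10 genes, 6 had knockout Ter119+ CD71+ arrays wholly on 1 side of the controls, as had 22.1% of all genes, and 3 of these remain to be described, none of them called. Slc38a1 (SNAT1, a glutamine and neutral amino acid carrier) was 9.30, 9.53 and 9.72 in controls and 10.30 and 10.14 in knockouts, a difference of 0.71 (SE 0.18), or 0.62 and 0.79 without knockout embryo 10 or 11. Slc1a5 (ASCT2, a glutamine exchanger) was 11.67, 11.37 and 11.51 in controls and 10.50 and 10.89 in knockouts, a difference of -0.82 (SE 0.21), or -0.63 and -1.02 without embryo 10 or 11. Slc6a9 was 10.78, 10.47 and 10.72 in controls and 10.01 and 10.45 in knockouts, a difference of -0.43 (SE 0.15), which was -0.20 without embryo 10 and -0.65 without embryo 11. Slc38a1 was thus the higher of these in the knockout, and Slc1a5 and Slc6a9 were the lower. Over 24 alternatives Slc38a1 was called in 6, Slc1a5 in 5 and Slc6a9 in 1, among them, for Slc1a5 and Slc6a9, the fit without knockout embryo 11, and for Slc38a1 the fits without either Ter119+ CD71med array. In Ter119- CD71+ cells the same genes differed by -0.09 (SE 0.16), -0.37 (SE 0.18) and -0.10 (SE 0.13), with overlapping arrays. Slc38a2 (SNAT2) differed by -0.14 (SE 0.13) and -0.20 (SE 0.14) in the 2 populations.

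**Figure D2:**
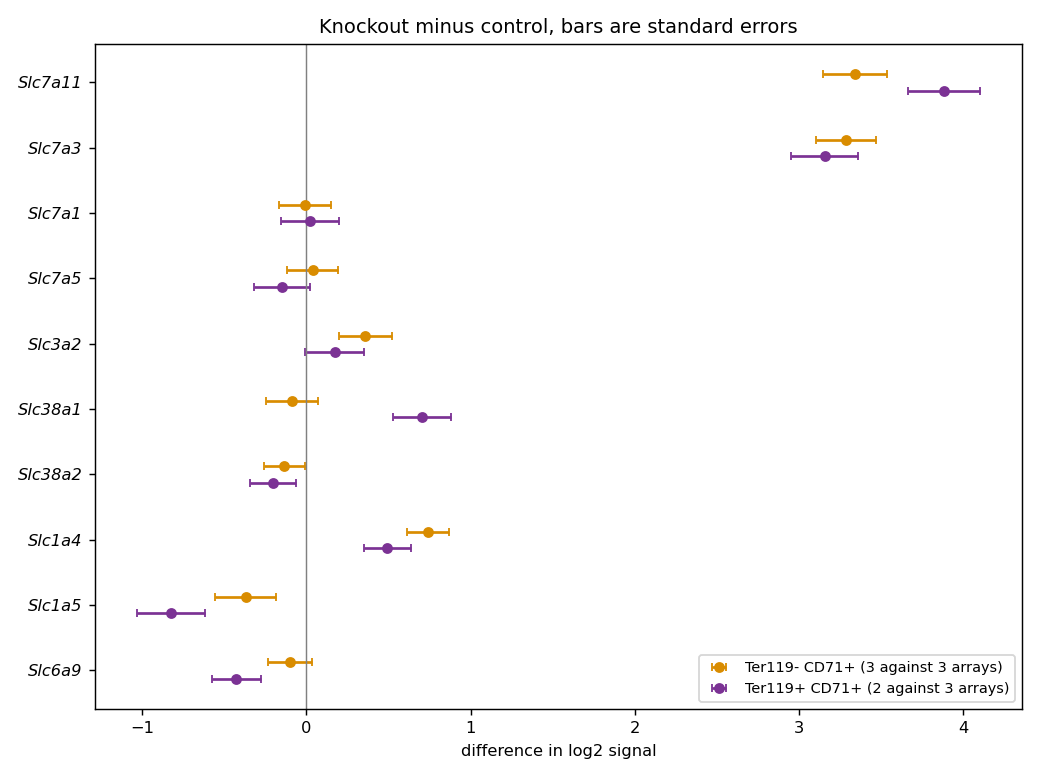
Knockout minus control difference in log2 signal (horizontal axis) for each of the 10 transporter genes, with standard errors as bars, in Ter119- CD71+ cells (orange, 3 against 3 arrays) and Ter119+ CD71+ cells (purple, 2 against 3 arrays). Slc7a11 and Slc7a3 lie between 3.16 and 3.89, and the other 8 genes lie between -0.82 and 0.74.

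By limma at an adjusted p under 0.05, 2.21% of all genes were called in knockout Ter119- CD71+ cells, 1.35% higher and 0.858% lower, and of the 10 genes 3 were higher and 0 lower. For Ter119+ CD71+ cells the share of all genes was 2.56%, with 1.48% higher and 1.08% lower, and of the 10 genes 2 were higher and 0 lower. The medians over the 10 genes were 0.01 and 0.10, against 0.00 and 0.02 over all genes. Nothing is read from these counts, since the genes were chosen with these differences known.

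Markers of other cell types moved with these comparisons. The mean of 18 measured neutrophil and myeloid markers (of 19 listed) was 5.08 to 5.55 in control Ter119- CD71+ cells and 5.94, 5.94 and 7.29 in the knockout cells, the last in embryo 10, and 4 of the 18 were called higher with a median difference of 1.01. In Ter119+ CD71+ cells that mean was 5.22 to 5.47 in controls and 5.31 to 5.42 in knockouts, with 0 of 18 called by limma and 0 at an unadjusted p under 0.05. In these same Ter119+ CD71+ knockout cells Slc7a11 was at 8.94 ± 0.16 and Slc7a3 at 8.47 ± 0.11 (SD, n = 2). With the marker mean as a covariate their differences in Ter119- CD71+ cells were 3.27 and 2.95, and in Ter119+ CD71+ cells 3.89 and 3.16. The marker mean was nearly equal between genotypes in Ter119+ CD71+ cells, so the covariate could not move the differences there. Its slope rests mostly on 1 array, that of knockout embryo 10 in Ter119- CD71+ cells. In Ter119- CD71+ cells this mean was higher in every knockout array than in every control array. Myeloid RNA and genotype can thus not be told apart there. The mean of the lymphoid markers (5 of 6 measured) was also apart in Ter119- CD71+ cells, at 5.06 to 5.13 in controls and 5.34 to 5.67 in knockouts. Among the 5, 1 was called higher, Ptprc, and 1 had an unadjusted p under 0.05 by limma. The list's median difference was 0.04, against 0.00 over all genes, so its mean was apart while its median was not. In Ter119+ CD71+ cells, megakaryocyte markers (5 of 7 measured) had means of 6.76 to 6.94 in controls and 6.56 to 6.62 in knockouts, with 0 called by limma and 4 at an unadjusted p under 0.05. Hepatocyte markers (14 of 16 measured) there had means of 6.43 to 6.65 and 5.96 to 6.34, with 1 called lower and 6 at an unadjusted p under 0.05. The part of these 3 lists in the transporter values was not tested. Endothelial markers had 0 of 6 called by limma in either population and 0 at an unadjusted p under 0.05. Macrophage markers (16 of 17 measured) had means of 5.04 to 5.25 in control and 5.18 to 5.23 in knockout Ter119- CD71+ cells, with 0 called in either population by limma and 2 in each at an unadjusted p under 0.05. The R26 EYFP genotype also divided part of the knockout embryos from the controls. With it as a covariate the differences of Slc7a11 were 3.15 and 3.59 and those of Slc7a3 were 3.06 and 2.81. Since all controls were ki/+, the adjustment rests on knockout embryo 1 in both populations. In Ter119- CD71+ cells it sets embryo 1 alone against the controls. For Ter119+ CD71+ cells it is carried over from the Ter119- CD71+ arrays, as embryo 1 gave no Ter119+ CD71+ array. A call lost with this covariate can thus not be assigned to the EYFP genotype.

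Whether the knockout effects differed between the populations was tested over all genes. None of the 10 genes was called, and 2 of all 19938 genes (0.01%) were. At an unadjusted p under 0.05 there was 1 of the 10, Slc38a1, whose knockout effect was 0.79 log2 units higher in Ter119+ CD71+ cells (SE 0.24, 95% confidence interval 0.29 to 1.2998, limma adjusted p = 0.481). A second Slc38a1 probe set gave 0.52 (SE 0.48) for this difference. Its knockout effect in Ter119+ CD71+ cells was 0.65 (SE 0.36), and neither was called. For Slc7a11 the difference between the effects was 0.55 (SE 0.29, 95% interval -0.09 to 1.18, adjusted p = 0.97), and for Slc7a3 it was -0.13 (95% interval -0.72 to 0.46, adjusted p = 0.999). Those of Slc1a5 and Slc6a9 were -0.45 and -0.33 (adjusted p = 0.999 for both).

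Maturation in control cells divided the 10 genes differently. Slc38a1 fell at every step. Its log2 level was 10.94, 11.24 and 11.30 in Ter119- CD71+ cells, 9.30, 9.53 and 9.72 in Ter119+ CD71+ cells, and 7.84 and 7.24 in the Ter119+ CD71med cells of embryos 13 and 15. No control groups overlapped. The steps were -1.64 (SE 0.16) and -1.97 (SE 0.18), and the whole span was -3.62 (SE 0.18), or 12.3-fold lower. Without the Ter119+ CD71med array of embryo 13 or 15 the span was -3.92 or -3.32. The second Slc38a1 probe set gave steps of -1.85 and -1.70 and a span of -3.56.

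Slc7a1 fell mainly at the later step, from 9.19 ± 0.30 and 8.79 ± 0.28 (SD, n = 3 each) to 7.71 and 7.45 in the 2 Ter119+ CD71med arrays. The later step was -1.21 (SE 0.18) and the span -1.61 (SE 0.18; 3.06-fold lower), or -1.74 and -1.48 without the Ter119+ CD71med array of embryo 13 or 15. Slc38a2 was 11.16 ± 0.14 and 11.04 ± 0.24 in the first 2 populations, then 10.44 and 10.30, a later step of -0.67 (SE 0.14) that was not called without the Ter119+ CD71med array of embryo 15. Slc1a4 reached 6.08 and 6.05, a later step of -0.48 (SE 0.14) whose call was lost in 14 of 25 alternatives, 7 of them single arrays left out and 1 the fixed replicate block (-0.44), and a span of -0.76 (SE 0.14).

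Slc6a9 and Slc1a5, carriers of glycine and glutamine, went the other way, and did so at the first step. Slc6a9 was 9.09, 9.37 and 9.18 in control Ter119- CD71+ cells, 10.78, 10.47 and 10.72 in Ter119+ CD71+ cells, and 10.82 and 10.81 in Ter119+ CD71med cells. Its first step was 1.44 (SE 0.13) and its span 1.601 (SE 0.15; 3.03-fold). Slc1a5 was 10.11, 10.81 and 10.14, then 11.67, 11.37 and 11.51, then 11.89 and 11.65, with a first step of 1.17 (SE 0.18) and a span of 1.42 (SE 0.21; 2.67-fold), or 1.295 and 1.54 without the Ter119+ CD71med array of embryo 13 or 15. For both genes the later step was small, at 0.16 and 0.25, and not called.

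Slc3a2 and Slc7a5 also ended higher in controls, with spans of 0.73 (SE 0.18) and 0.66 (SE 0.17), the second not called without the Ter119+ CD71med array of embryo 15 (0.595). Of these, Slc3a2 was called at the first step, at 0.53 (SE 0.16), a call lost in 7 of 25 alternatives, 4 of them the arrays of control embryos 2 and 15 left out in turn. Slc7a11 and Slc7a3, already low, had spans of -0.54 (SE 0.22) and -0.46 (SE 0.20), which were not called. The arrays at the 2 ends of the span did not overlap, for Slc7a3 only just. Each span was called in 4 of 25 alternatives, among them renewed quantile normalization, at -0.72 and -0.65. The span of Slc7a3 was -0.05 without the Ter119+ CD71med array of embryo 13 and -0.88 without that of embryo 15.

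At the first control step 3 of the 10 genes were called higher and 1 lower, against 19% of all genes in either direction (7.27% higher, 11.7% lower). The later step had 0 higher and 4 lower, against 13.3% of all genes (4.11% higher, 9.21% lower). The span had 4 higher and 4 lower, against 38.2% of all genes (18.1% higher, 20.1% lower). Nothing is read from these counts, since the control comparisons also served to choose the genes. The median span was -0.50 over the 10 genes and 0.14 over all genes, and the latter moved to 0.04 after renewed quantile normalization and 0.07 after median centring. Marker lists of other cell types had higher medians than all genes over the same span. The mean of the 14 hepatocyte markers was 5.96 to 6.11 in control Ter119- CD71+ cells, 6.43 to 6.65 in Ter119+ CD71+ cells and 6.93 to 7.002 in Ter119+ CD71med cells, with 10 of 14 called higher and a median of 1.08. The neutrophil and myeloid mean in Ter119+ CD71med cells was 5.94 to 5.95, with 5 of 18 called higher over the span. Called higher there too were 6 of 16 macrophage markers, with 1 lower, 4 of 5 megakaryocyte, 3 of 6 endothelial and 1 of 5 lymphoid markers. The share over all genes was 18.1%, and the lymphoid count lay near it. The median differences were 0.47 for myeloid, 0.33 for macrophage, 0.69 for megakaryocyte, 0.35 for endothelial and 0.35 for lymphoid markers, against 0.14 over all genes. The part of these markers in the transporter values was not tested.

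The step from Ter119- CD71+ to Ter119+ CD71+ cells in the knockout was tested for the 10 genes. Slc6a9 rose by 1.12 log2 units (SE 0.15, 95% confidence interval 0.80 to 1.43, limma adjusted p = 0.000347), from 9.23, 9.01 and 9.10 to 10.01 and 10.45. Slc38a1 fell by 0.85 (SE 0.18, adjusted p = 0.00641), from 11.05, 11.03 and 11.14 to 10.30 and 10.14. Its second probe set gave -1.33 (SE 0.36). Both genes kept the direction they had in controls, and their arrays did not overlap. Slc1a5 rose by 0.71 (SE 0.21, adjusted p = 0.0415), from 9.89, 9.82 and 10.23 to 10.50 and 10.89. Slc1a4 fell by 0.53 (SE 0.14, adjusted p = 0.0302), from 7.62, 7.63 and 7.44 to 6.92 and 7.15.

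The calls of Slc1a5 and Slc1a4 were lost with embryo as a fixed replicate block, a paired fit, in which the changes were 0.67 (adjusted p = 0.0739) and -0.49 (adjusted p = 0.13), so that 2 rather than 4 genes were called. Both were also lost without the knockout arrays of Ter119- CD71+ embryo 1 or 10 or of Ter119+ CD71+ embryo 10, and that of Slc1a5 also without the Ter119+ CD71+ array of knockout embryo 11 or control embryo 15. The other 6 genes did not pass, among them Slc7a11 at 0.44 (adjusted p = 0.268) and Slc7a3 at -0.28 (adjusted p = 0.474). With 2 called higher and 2 lower, 4 of 10 passed where 10.7% of all genes did (4.5% higher, 6.24% lower). Nothing is read from this count, since the step combines comparisons that served to choose the genes. Of the 18 myeloid markers 5 were called lower over the same step, and with their mean as a covariate the fall of Slc38a1 was 0.81 (limma adjusted p = 0.114) and 1 gene, Slc6a9, was called. Calls over all genes went from 2143 to 614 with this covariate, whose slope rests mostly on knockout embryo 10.

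**Figure D3:**
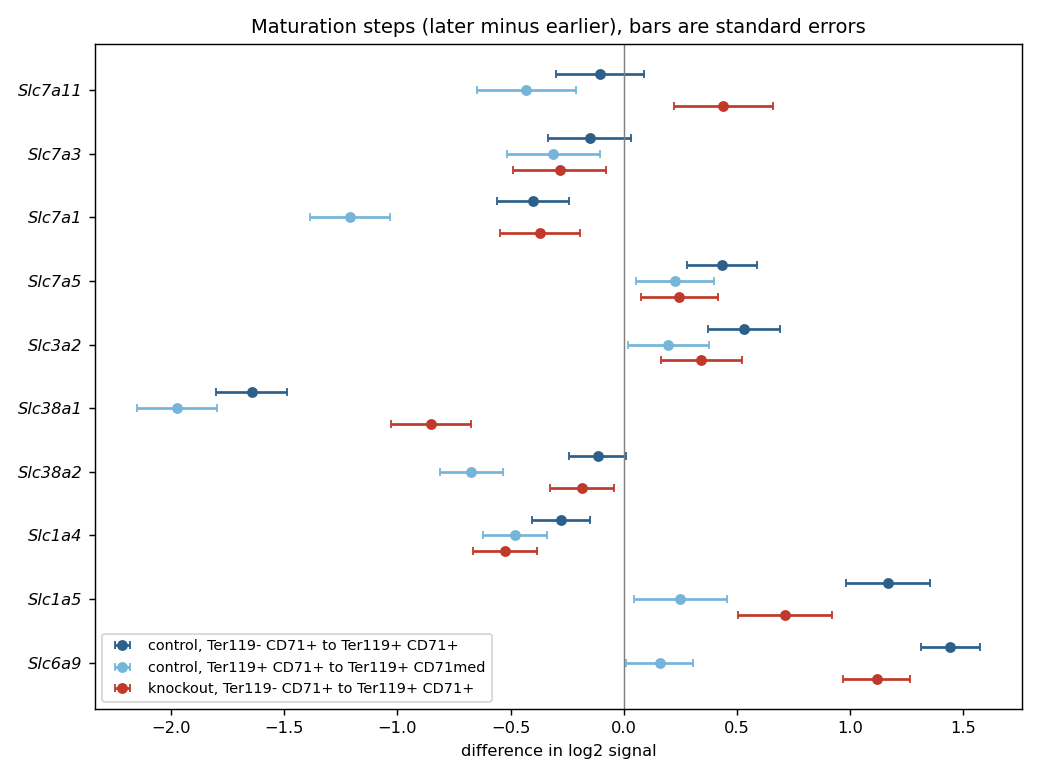
Later minus earlier difference in log2 signal (horizontal axis) for the 10 transporter genes, with standard errors as bars, for the control steps from Ter119- CD71+ to Ter119+ CD71+ (dark blue) and on to Ter119+ CD71med (light blue) and for the knockout step from Ter119- CD71+ to Ter119+ CD71+ (red). Slc38a1 lies below 0 in all 3 steps, at -1.64, -1.97 and -0.85, and Slc6a9 rises at the first step in both genotypes, by 1.44 and 1.12.

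A further 44 amino acid transporter genes were measured, all 44 of a list of 44. In knockout Ter119- CD71+ cells 1 was higher and 3 were lower, and in Ter119+ CD71+ cells 1 was higher and 0 lower by limma, with 7 at an unadjusted p under 0.05 in the latter. Of all genes, 1.35% were higher and 0.858% lower in the first comparison and 1.48% and 1.08% in the second, which holds for each list that follows. Slc7a7, the light chain of the y+LAT1 exchanger of cationic and neutral amino acids, was the gene that rose in both, by 1.18 (SE 0.13, adjusted p = 0.000298) and 1.24 (SE 0.14, adjusted p = 0.000407). The first call was lost with the myeloid covariate and the second with the R26 EYFP covariate. Slc7a7 fell over the control span by 1.27 (adjusted p = 1.04e-05). Slc38a5, which encodes the glutamine transporter SNAT5 (-0.96, adjusted p = 0.00552), Slc43a1, which encodes LAT3 (-0.84, adjusted p = 0.0124), and Slc16a10, the gene of an aromatic amino acid transporter (-0.56, adjusted p = 0.0366), fell in Ter119- CD71+ cells. Their differences in Ter119+ CD71+ cells were -0.57, -0.61 and -0.57 (adjusted p = 0.111, 0.0839 and 0.0507). The call of Slc43a1 was lost when the array of knockout embryo 10 or of control embryo 13 or 15 was left out, and that of Slc16a10 without any 1 of 6 arrays. With either covariate the calls of Slc38a5, Slc43a1 and Slc16a10 were all lost. Over all genes the calls in Ter119- CD71+ cells went from 441 to 33 with the EYFP covariate and to 23 with the myeloid one. The list's medians were -0.05 and 0.02, against 0.00 and 0.02 over all genes.

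Of 14 measured genes of cystine and glutathione metabolism (of 15 listed), 2 were higher and 0 lower in knockout Ter119- CD71+ cells, and 2 were higher and 2 lower in Ter119+ CD71+ cells. Cth, whose product makes cysteine from cystathionine, rose by 2.63 (SE 0.19, adjusted p = 4.42e-06) and 2.74 (SE 0.21, adjusted p = 8.63e-06). Chac1, which encodes an enzyme that degrades glutathione, rose by 1.68 (SE 0.20, adjusted p = 0.00065) and 1.55 (SE 0.22, adjusted p = 0.00186). Gss, the gene of glutathione synthetase, fell in Ter119+ CD71+ cells by 1.01 (adjusted p = 0.0145), and Chac2 fell by 0.85 (adjusted p = 0.0115). Both of these calls were lost without knockout embryo 10, and that of Gss also without control embryo 15. The count in Ter119+ CD71+ cells was 2 without knockout embryo 10 and 7 without embryo 11. Calls over all genes fell and rose in the same fits. The list's medians were 0.01 and -0.13.

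Arginine and polyamine genes, of which 11 of 15 were measured, had 0 called in both populations by limma, with 0 and 3 at an unadjusted p under 0.05. Odc1, which encodes the first enzyme of polyamine synthesis, differed by -0.22 (SE 0.12, adjusted p = 0.461) and -0.35 (SE 0.13, adjusted p = 0.24). Of 10 genes of glycine use and heme entry, 0 were called in Ter119- CD71+ cells by limma, with 4 at an unadjusted p under 0.05, and 1 was higher in Ter119+ CD71+ cells. That was Shmt2, the mitochondrial serine hydroxymethyltransferase gene, at 0.70 (SE 0.13, adjusted p = 0.0123). Alas2, the erythroid enzyme of the first step of heme synthesis, differed by -0.45 and -0.59 (adjusted p = 0.132 and 0.0721). Slc25a38, a mitochondrial glycine carrier gene, differed by -0.69 and -0.78 (adjusted p = 0.142 for both).

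Of 26 genes of the ATF4 response, 7 rose and 0 fell in knockout Ter119- CD71+ cells, with a median of 0.31 over the list against 0.00 over all genes. Among Ter119+ CD71+ cells 8 rose and 0 fell, with a median of 0.48 against 0.02. Nupr1, a stress-induced chromatin protein gene, rose by 2.58 (SE 0.23, adjusted p = 3.99e-05) and 2.60 (SE 0.25, adjusted p = 9.41e-05). Trib3, a pseudokinase gene, rose by 1.49 (SE 0.19, adjusted p = 0.00113) and 1.41 (SE 0.21, adjusted p = 0.00268), and Cebpg, the gene of an ATF4 partner, by 0.81 (SE 0.12, adjusted p = 0.0029) and 0.57 (SE 0.13, adjusted p = 0.0367). The second call of Cebpg was lost in 13 of 24 alternatives, 7 of them single arrays left out. The count in Ter119+ CD71+ cells was 5 without knockout embryo 10 and 5 without any 1 of the 3 controls of that population, and it was 0 with the R26 EYFP covariate. In Ter119- CD71+ cells it was 3 with that covariate and 1 with the mean of the myeloid markers. Calls over all genes moved in the same fits. In Ter119+ CD71+ cells they were 510, and 309, 490 and 294 without control embryo 2, 13 or 15. They also fell without knockout embryo 10, and were 17 with the EYFP covariate. In Ter119- CD71+ cells they went from 441 to 33 with that covariate and to 23 with the myeloid one. Atf4 itself, the gene of the factor, differed by 0.09 and -0.28 in the 2 populations. The list shares Chac1 and Shmt2 with the lists above.

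Of 20 measured genes of the NRF2 response (of 21 listed), the oxidative stress pathway that also acts on Slc7a11, 1 rose and 0 fell in knockout Ter119- CD71+ cells and 2 rose and 0 fell in Ter119+ CD71+ cells. Hmox1, which encodes the heme-degrading enzyme heme oxygenase 1, rose by 1.80 (SE 0.18, adjusted p = 0.000103) and 1.31 (SE 0.20, adjusted p = 0.00277). Abcc1, an export pump gene, rose in Ter119+ CD71+ cells by 0.89 (SE 0.14, adjusted p = 0.0036). The first count was 4 without control embryo 2 and 2 without either knockout Ter119+ CD71+ array, and the second was 5 without knockout embryo 11. Calls over all genes rose in each of these fits too. Nfe2l2, which encodes NRF2 itself, differed by -0.53 and -0.38 (adjusted p = 0.0791 and 0.33). The list's medians were -0.15 and -0.10. Of the genes named in these lists, Cth alone kept its Ter119+ CD71+ call with the R26 EYFP covariate, and Cth, Nupr1 and Hmox1 kept their Ter119- CD71+ calls with the myeloid marker mean.

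**Figure D4:**
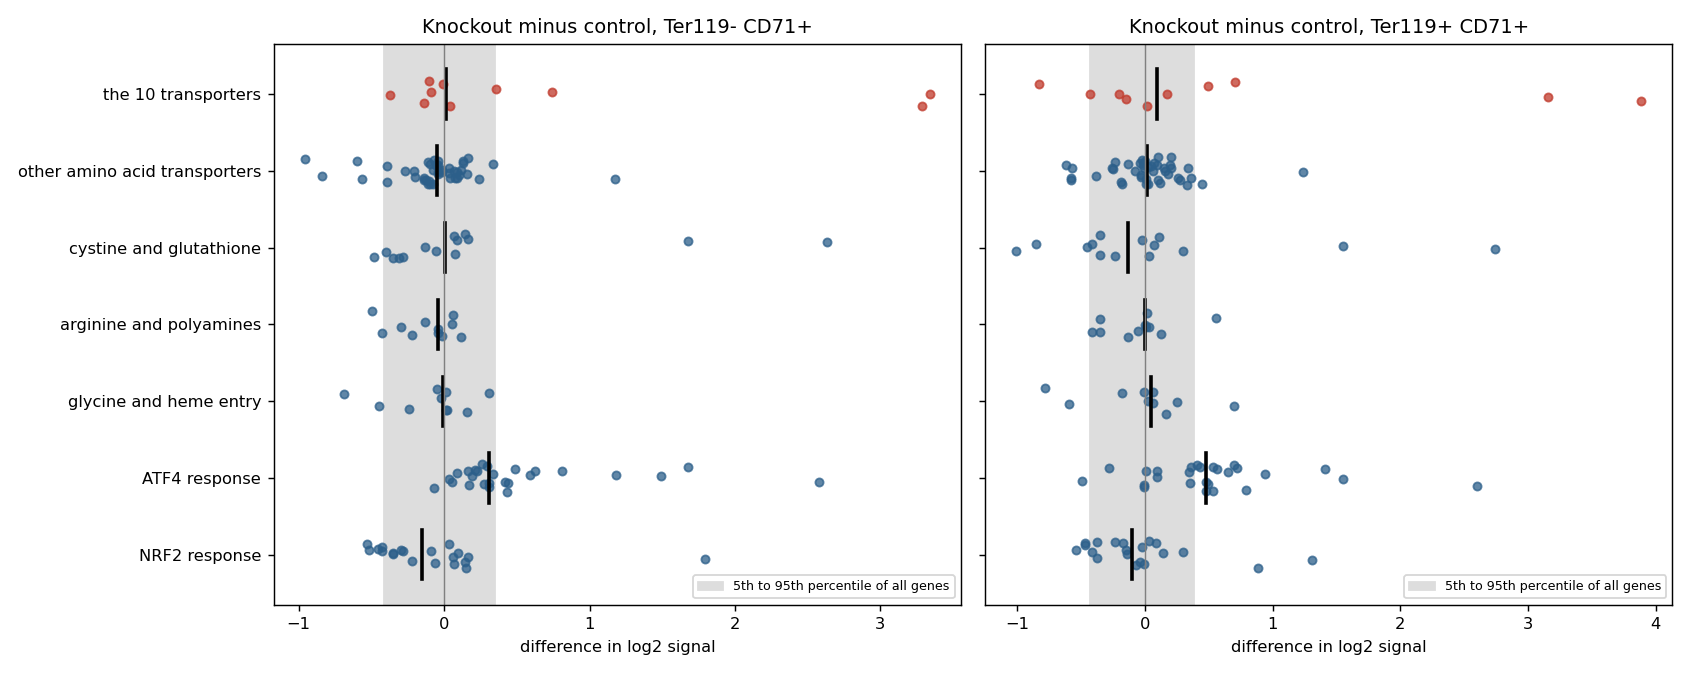
Knockout minus control difference in log2 signal (horizontal axis) of each gene (point) of the 10 transporters and of 6 gene lists (rows), in Ter119- CD71+ cells (left) and Ter119+ CD71+ cells (right), with list medians as black bars and the 5th to 95th percentile of all genes in grey. The medians of the ATF4 response list are 0.31 and 0.48, and the 2 rightmost transporters are Slc7a11 and Slc7a3.

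The genes whose levels followed Slc7a11 most closely were ranked by Pearson's r over the 13 arrays, which share embryos and fall into knockout and control groups, so the values are a description. Slc7a3 came first (r = 0.979), then Rtp4 (0.977), Bnip3 (0.975), Pfkp (0.975) and Fbxl20 (0.965). Rtp4 is an interferon-stimulated gene, Bnip3 encodes a mitochondrial mitophagy protein and Pfkp encodes platelet phosphofructokinase. For Slc7a3 the order was Bnip3 (0.993), Nupr1 (0.982), Slc7a11 (0.979), Pfkp (0.975) and Cth (0.974). Among the 10 transporters, Slc1a4 came next, at 0.813 with Slc7a11 and 0.836 with Slc7a3. Slc1a5 lay at the other end, at -0.62 and -0.67.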

How the data were processed

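The deposited table holds log2 signals of 35556 probe sets on 13 arrays, which the authors made with RMA (background correction, quantile normalization, summary over probes) per the submitters' processing notes. The notes give no RMA version and name mm9 without a role. Array medians were 5.66 to 5.89, and precision is limited by how many arrays there are. Probe sets with 1 symbol in the platform's gene table (21789) were kept, and those with several (1621) or none (12146) were left out. For 999 genes with several probe sets the one with the highest mean was used, which gave 19938 genes.

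A linear model with a mean for each of the 5 groups was fitted over all 13 arrays by limma (version 3.58.1, in R 4.3.3), leaving 8 residual degrees of freedom. P values were two-sided and Benjamini-Hochberg adjusted over all genes, and called means an adjusted p under 0.05. Counts at an unadjusted p under 0.05 stand without the share of all genes at that threshold, so they are not set against it. A fold change is taken from the difference of mean log2 signals. The fit was tested on simulated data. The transporters, gene lists, markers, comparisons and alternatives were chosen with earlier results of these data known. Up to 4 genes per list were named by the smallest adjusted p in a knockout comparison, not all of which are printed, and the 5 genes most correlated with Slc7a11 and with Slc7a3. Atf4 and the marker Ptprc were named apart from this rule.

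Embryo numbers in the sample titles pair populations of 1 animal. After removal of group means, the 9 pairs of arrays from 1 embryo had correlations from -0.23 to 0.35 (4 above 0.1), and the consensus correlation was 0.00385; the fits reported have no block. Promoter motifs were searched in RefSeq promoters of GRCm38.p6, which is not the build the notes name. A comparison of protein sequences was not run. Figures came from matplotlib 3.10.9 in Python 3.11.15, with pandas 2.3.3.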

Additional observations from a re-analysis of the deposited data

How the results depend on the processing

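Of the values themselves, quantile normalization was renewed, arrays were median-centred, the 33.3% of genes with the lowest means were dropped, and probe sets of a gene were averaged. Of the model, the fit took an intensity trend with robust variances, array weights, or the arrays of the compared groups alone. Embryo entered as a replicate block, random or fixed, and the covariates were the R26 EYFP genotype and the mean of the myeloid markers. The EYFP covariate rests on knockout embryo 1, so a call lost with it is not assigned to that genotype. The test took a minimum log2 change of 1, and single arrays were left out. As a description, since these differences chose the genes, the knockout differences of Slc7a11 ranged from 3.08 to 3.52 and from 3.59 to 4.08, and those of Slc7a3 from 2.95 to 3.40 and from 2.81 to 3.23. Of 1730 alternative values for the 10 genes, 1606 kept direction and call, 67 lost a call, 30 gained one and 27 changed sign, none of them a called value. The causes were not tested, apart from the construction of each alternative: the minimum change of 1 is a stricter test, and leaving out an array removes data, with the lone array of a pair assumed to vary like the others. Of 461 alternative counts of calls, 384 lay within 1.5 times the count reported. For the 10 transporters, the count in knockout Ter119+ CD71+ cells (2) was 4 without the lowest genes and 4 with the intensity trend, and 2 to 4 with an array left out. All genes had 510 calls there, 574 without the lowest genes and 496 with the intensity trend. The first control step (4) had 7 with array weights and 0 at the minimum change, where all genes had 6349 and 139, against 3789 in the main fit. The later control step (4) had 0 at the minimum change and 2 to 4 with an array left out, the lowest without Ter119+ CD71med embryo 15. The span (8) had 3 at the minimum change. At that change all genes had 0 calls for the later step, against 2656, and 1074 for the span, against 7615. The knockout step (4) had 2 after renewed quantile normalization, with only the groups compared, with array weights, with the fixed replicate block and with the EYFP covariate, 1 with the myeloid covariate, 0 at the minimum change, and 2 to 4 with an array left out. For the knockout step all genes had 2143 calls. These were 2351 after renewed quantile normalization, 1574 with only the groups compared and 1007 with array weights. They were 1954 with the fixed replicate block, 1608 with the EYFP covariate, 614 with the myeloid covariate and 43 at the minimum change. The replicate block changed no other count of the 10 genes by over 1.5 times. For the lists, counts are given for Ter119- CD71+ and then Ter119+ CD71+ cells. Over all genes the calls were 441 and 510. They were 3151 and 128 with array weights, 33 and 17 with the EYFP covariate, and 23 and 478 with the myeloid covariate. At the minimum change they were 17 and 24, with only the groups compared 299 and 116, and with the intensity trend 460 and 496. They moved with single arrays left out too. The other transporters (4, 1) had 1 and 0 with the EYFP covariate, 0 in the first with the myeloid covariate, 0 and 0 at the minimum change, 2 in the second without the lowest genes, with the mean of probe sets and with the intensity trend, and 2 to 5 and 1 to 3 with an array left out. Cystine and glutathione genes (2, 4) had 4 and 2 with array weights, 1 in the first with the myeloid covariate, 1 and 1 at the minimum change, 2 in the second with only the groups compared, 1 there with the EYFP covariate, and 2 to 7 there with an array left out. Arginine and polyamine genes (0, 0) had 1 in the first with array weights and 0 to 1 in the second with an array left out. Glycine and heme genes (0, 1) had 4 and 0 with array weights, 2 in the second with the intensity trend and with the myeloid covariate, 0 there with only the groups compared, the EYFP covariate and the minimum change, and 0 to 1 and 1 to 2 with an array left out. ATF4 response genes (7, 8) had 14 and 2 with array weights, 3 and 0 with the EYFP covariate, 1 in the first with the myeloid covariate, 1 and 1 at the minimum change, 5 in the second with median centring, 4 there with only the groups compared, and 5 to 7 and 5 to 9 with an array left out. NRF2 response genes (1, 2) had 2 in the first with the intensity trend, 6 and 0 with array weights, 0 and 0 at the minimum change, 0 in the second with the EYFP covariate, and 1 to 4 and 2 to 5 with an array left out. Among the tested values 11 changed sign. The knockout step of Slc7a3 was 0.027 with the myeloid covariate. Differences between the knockout effects were 0.21, 0.017 and 0.048 for Slc7a3, Slc7a5 and Slc3a2 with the myeloid covariate and 0.0028 for Slc38a2 after renewed quantile normalization. With an array left out they ranged from -0.13 to 0.18 for Slc7a1, from -0.20 to 0.030 for Slc38a2 and from -0.25 to 0.027 for Slc7a3.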
